A study of Mus musculus with 2 samples.

Results

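A set of 7 transcription factors that hold aortic smooth muscle cells in the contractile state, or move them out of it, were followed across the cell types of mouse aneurysm tissue: Myocd, Srf, Mef2c, Tead1, Klf4, Klf5 and Tcf21. They were taken by symbol, 7 of the 55450 genes counted, and each symbol matched 1 gene in both libraries. In GENCODE coordinates on GRCm38, Myocd lies at chr11:65176561-65269989 and Srf at chr17:46548329-46556175 (both minus strand), Mef2c at chr13:83504034-83667080 and Tead1 at chr7:112679318-112906807 (both plus strand), Klf4 at chr4:55527143-55532466 (minus), Klf5 at chr14:99298691-99315036 (plus) and Tcf21 at chr10:22817281-22820174 (minus). As background, serum response factor (SRF) binds a DNA element called the CArG box, and myocardin, encoded by Myocd, is the coactivator that directs SRF to contractile genes. MEF2C activates Myocd in muscle lineages, and TEAD1 is the DNA-binding partner of YAP and TAZ. KLF4 and KLF5 are zinc-finger factors linked to loss of the contractile state and to proliferation, and TCF21 is a bHLH factor of fibroblasts that has been tied to the fibroblast-like change of smooth muscle in atherosclerosis.

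Single-cell RNA-seq was run on aortic tissue from 12-week Apoe-/- mice, which lack apolipoprotein E, with an abdominal aortic aneurysm induced by the peptide hormone angiotensin II. One library came from the inhibitor group and 1 from the DMSO group, in which the solvent DMSO stood in for the inhibitor. Both groups share the Apoe-/- genotype, the age and the aneurysm model, and their titles carry initials that were read as inhibitor and DMSO from the series design. What the inhibitor is, how much of it was given and when, how many animals were pooled and which aortic segment a cell came from are not given in the sources used.

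The inhibitor library held 8149 barcodes and 79648307 UMIs (unique molecular identifiers, which count captured transcripts). The DMSO library held 9125 barcodes and 101139161 UMIs. After filtering, 7417 inhibitor cells (median 8991 UMIs) and 8411 DMSO cells (median 7935 UMIs) remained. The libraries shared 16 barcode sequences, 15 of them kept in both. With 1 library per group there is no test and no p-value; every interval below is a 95% interval that covers counting error only, and variation between animals is outside it. Levels are in CPM, the UMIs of a gene scaled to the same total of UMIs in every class and library. A factor was called higher or lower where the CPM ratio was at least 1.5-fold, its interval left out 1, and it had at least 20 CPM in 1 of the sums and 20 UMIs over both; other differences are given as values.

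Cells were named by marker genes, so each name means "-like". Smooth muscle-like cells numbered 3174 with the inhibitor (42.8% of its cells) and 786 with DMSO (9.34%). All 11 of their markers were present, with a summed level of 55920 CPM with the inhibitor and 41229 CPM with DMSO. Of 4 smooth muscle-like clusters, 1 with Eln, Acan, Tnfrsf11b and Ltbp2 among its leading genes was called modulated because all 12 markers of the modulated state counted there. It held 120 cells (3.78% of smooth muscle-like cells) with the inhibitor and 264 cells (33.6%) with DMSO; the other clusters, with 4 or 5 such markers, were called contractile and held 3054 inhibitor and 522 DMSO cells. The 7 factors, the listed genes and the markers were left out of the genes used for clustering.

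The promoter of Srf is shown because it carries the element that the SRF protein itself binds. The 250 bases before the RefSeq start site of Srf (GRCm38.p6, minus strand, chr17:46556163-46556412), with CArG boxes in capitals and the rest in lower case, read 5′ to 3′:
Srf: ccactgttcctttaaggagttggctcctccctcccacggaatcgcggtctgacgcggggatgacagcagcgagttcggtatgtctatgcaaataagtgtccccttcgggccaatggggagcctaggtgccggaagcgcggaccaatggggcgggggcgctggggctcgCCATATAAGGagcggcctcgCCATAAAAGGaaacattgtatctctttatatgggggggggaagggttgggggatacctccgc
The boxes CCATATAAGG and CCATAAAAGG begin 82 and 62 bases before the start. A CArG box, searched on both strands, was found in 482 of 32851 such windows (1.47%). The promoter table held 4 of the 7 factors, and no CArG box was found in the windows of Klf4, Tcf21 or the 3 Mef2c starts. The TEAD element core CATTCC, present in 12.6% of windows, was found in 1 Mef2c window and in none of Srf, Klf4 or Tcf21. Of the contractile targets of SRF listed here, 2 of the 16 in the table (Myl9 and Vcl) held a CArG box in this window. These matches describe letters in a short window and say nothing of boxes farther away.

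Myocd marked the smooth muscle lineage. Its level in contractile cells was 211 CPM with the inhibitor (interval 206 to 216) and 176 CPM with DMSO (166 to 186). In modulated cells it was 114 CPM with the inhibitor (101 to 128) and 89.0 CPM with DMSO (81.1 to 97.5). Pericyte-like cells came next at 79.6 CPM with the inhibitor (21 cells) and 41.1 CPM with DMSO (35 cells). In the inhibitor library their interval overlapped that of modulated cells. Pericytes are the mural cells of small vessels, but this name was a near tie. The cluster had a mean score of 4.82 for pericyte and 4.77 for smooth muscle markers, and all 8 contractile markers counted there. Its contractile targets of SRF and myocardin summed to 52797 CPM with the inhibitor and 22844 CPM with DMSO. Levels in this class therefore cannot be set apart from smooth muscle. In the other classes the level of Myocd was at 22.4 CPM or less, and neutrophil-like cells of both libraries held no UMI of it. A Myocd UMI was found in 79.8% of inhibitor and 71.6% of DMSO smooth muscle-like cells, at medians of 11186 and 14198 UMIs per cell. In macrophage-like cells, which should lack it, the share was 2.42% with the inhibitor and 0.430% with DMSO, at medians of 5884 and 7026 UMIs. The summed smooth muscle markers in macrophage-like cells moved with that background, at 1172 CPM with the inhibitor and 471 CPM with DMSO.

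Srf, the DNA-binding partner of myocardin, was low in every class and did not follow Myocd across them; its highest value, 34.1 CPM in inhibitor pericyte-like cells, rests on 6 UMIs. It stood at 14.2 CPM in inhibitor and 12.4 CPM in DMSO smooth muscle-like cells, and at 12.9 CPM in inhibitor and 9.88 CPM in DMSO endothelial-like cells. Fibroblast-like cells had 5.91 CPM with the inhibitor and 6.22 CPM with DMSO. Macrophage-like cells, at 7.55 CPM with the inhibitor and 9.07 CPM with DMSO, stood within the same range. A UMI of Srf was found in 15.2% of inhibitor and 16.5% of DMSO smooth muscle-like cells. In neither library did smooth muscle-like cells pass the 20 CPM needed for a call.

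Mef2c was shared by the smooth muscle, endothelial and macrophage lineages. Contractile cells had 298 CPM with the inhibitor and 326 CPM with DMSO. Pericyte-like cells were at 239 CPM with the inhibitor and 256 CPM with DMSO, and modulated cells at 213 CPM with the inhibitor and 248 CPM with DMSO. The order below contractile cells differed by library: macrophage-like cells (234 CPM) stood above endothelial-like cells (167 CPM) with the inhibitor, and endothelial-like cells (253 CPM) above macrophage-like cells (139 CPM) with DMSO. Fibroblast-like cells had 78.0 CPM with the inhibitor and 52.1 CPM with DMSO. T cell-like cells held 2 UMIs of Mef2c with the inhibitor and 25 with DMSO.

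Tead1 was found in glial, mural, fibroblast, endothelial and adipocyte classes and was low in macrophage-like cells. Schwann-like cells had the highest values, at 181 CPM with the inhibitor (156 to 209) and 187 CPM with DMSO (171 to 205). Pericyte-like cells came next, at 159 CPM with the inhibitor (106 to 230) and 142 CPM with DMSO (104 to 191). Their intervals overlapped those of Schwann-like cells in both libraries. Contractile smooth muscle-like cells had 110.3 CPM with the inhibitor and 90.8 CPM with DMSO, and fibroblast-like cells 73.7 CPM with the inhibitor and 78.7 CPM with DMSO. Lymphatic endothelial-like cells had 99.8 CPM with the inhibitor and 97.0 CPM with DMSO, and the intervals for endothelial-like cells were 68.8 to 88.5 CPM with the inhibitor and 65.7 to 78.6 CPM with DMSO. Adipocyte-like cells had 115 CPM with the inhibitor and 73.8 CPM with DMSO (ratio 1.55, 1.32 to 1.82), from 83 inhibitor and 848 DMSO cells. Macrophage-like cells had 4.61 CPM with the inhibitor and 2.88 CPM with DMSO.

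Klf4 was several-fold lower in smooth muscle than in endothelial, macrophage and fibroblast classes. The inhibitor library had 649 CPM in endothelial-like, 596 CPM in lymphatic endothelial-like and 532 CPM in macrophage-like cells, against 118 CPM in contractile smooth muscle-like cells. The DMSO library had 964 CPM in lymphatic endothelial-like, 735 CPM in endothelial-like and 717 CPM in macrophage-like cells, against 208 CPM in contractile smooth muscle-like cells. Fibroblast-like cells stood between, at 462 CPM with the inhibitor and 585 CPM with DMSO. No class lacked Klf4: the lowest, neutrophil-like cells, had 79.8 CPM with the inhibitor (8 UMIs) and 98.1 CPM with DMSO (46 UMIs).

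Klf5 and Tcf21 were close to absent from smooth muscle, and both were present in fibroblast-like cells. Klf5 had 15.4 CPM in inhibitor and 18.5 CPM in DMSO fibroblast-like cells, against 0.865 CPM in inhibitor and 1.81 CPM in DMSO smooth muscle-like cells. Small leukocyte classes reached a like level on few UMIs, such as T cell-like cells with 27.7 CPM from 8 UMIs in the inhibitor and 14.4 CPM from 16 UMIs in the DMSO library. Schwann-like cells had 14.7 CPM from 37 UMIs with DMSO and 6.61 CPM from 7 UMIs with the inhibitor. Pericyte-like cells had 12.7 CPM of Klf5 from 4 UMIs with DMSO and no UMI of it with the inhibitor. In the DMSO library 34.0% of the fibroblast Klf5 UMIs (237 of 698; 30.4 to 37.6%) lay in 66 cells of 1 cluster led by Apod, Tenm2 and Thbs4, which had only 7 inhibitor cells; Klf5 itself was among its leading genes. Without that cluster fibroblast-like cells had 14.5 CPM of Klf5 with the inhibitor and 12.4 CPM with DMSO, so that the order of the libraries turned round. Tcf21 had 22.3 CPM in inhibitor and 9.06 CPM in DMSO fibroblast-like cells. In smooth muscle-like cells Tcf21 came to 19 UMIs in 3174 inhibitor cells (0.498 CPM) and 9 UMIs in 786 DMSO cells (0.741 CPM). Pericyte-like cells held no Tcf21 UMI in 21 inhibitor cells and 4 UMIs in 35 DMSO cells, at 12.7 CPM (3.45 to 32.4), an interval that overlapped that of DMSO fibroblast-like cells. Modulated cells held 1 Tcf21 UMI in 120 inhibitor cells and 5 UMIs in 264 DMSO cells.

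**Figure D1:**
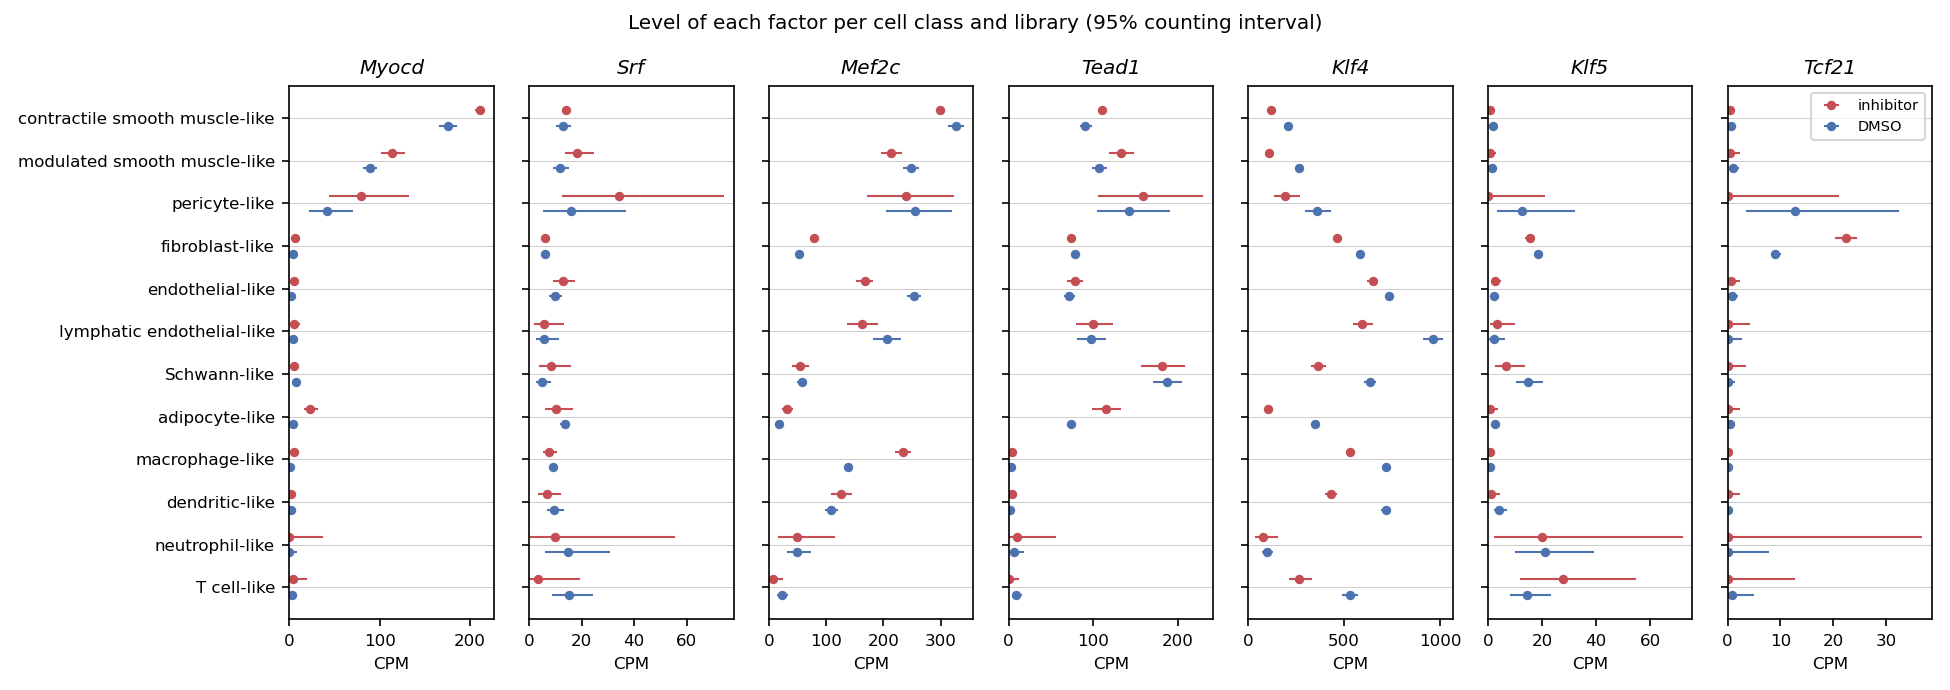
Level of the 7 factors (CPM, 1 panel and 1 scale per gene) in 12 cell classes, with the inhibitor library in red above the DMSO library in blue; points are summed UMIs of 1 library and bars 95% counting intervals. Myocd peaks in contractile cells at 211 CPM (inhibitor) and 176 CPM (DMSO), Tcf21 stands at 22.3 CPM (inhibitor) and 9.06 CPM (DMSO) in fibroblast-like cells, with a wide interval in pericyte-like cells, and Klf4 is higher in endothelial and macrophage classes than in smooth muscle in both libraries.

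Modulated cells had less Myocd than contractile cells in both libraries, and none of the other factors was called the same way in both. Myocd stood at 0.538 of the contractile level with the inhibitor (0.475 to 0.606) and at 0.505 with DMSO (0.453 to 0.563). It was the 1 of 4 measured factors called lower in both, where 25.8% of genes were called in the inhibitor library, 22.2% in the DMSO library, and 6.98% of the 6061 genes measured in both libraries were called lower and 9.44% higher in both. Mef2c stood at 0.715 of the contractile level with the inhibitor and at 0.760 with DMSO, short of the 1.5-fold limit. Tead1 had 133 CPM in modulated and 110.3 CPM in contractile inhibitor cells, and 107 CPM in modulated and 90.8 CPM in contractile DMSO cells. Klf4 had no common direction, at 109 CPM in modulated and 118 CPM in contractile inhibitor cells (ratio 0.931, 0.820 to 1.05), and 265 CPM in modulated and 208 CPM in contractile DMSO cells (ratio 1.27, 1.18 to 1.37). Srf was below the limit for a call, at 18.4 CPM in modulated and 13.9 CPM in contractile inhibitor cells, and 11.9 CPM in modulated and 12.8 CPM in contractile DMSO cells.

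**Figure D2:**
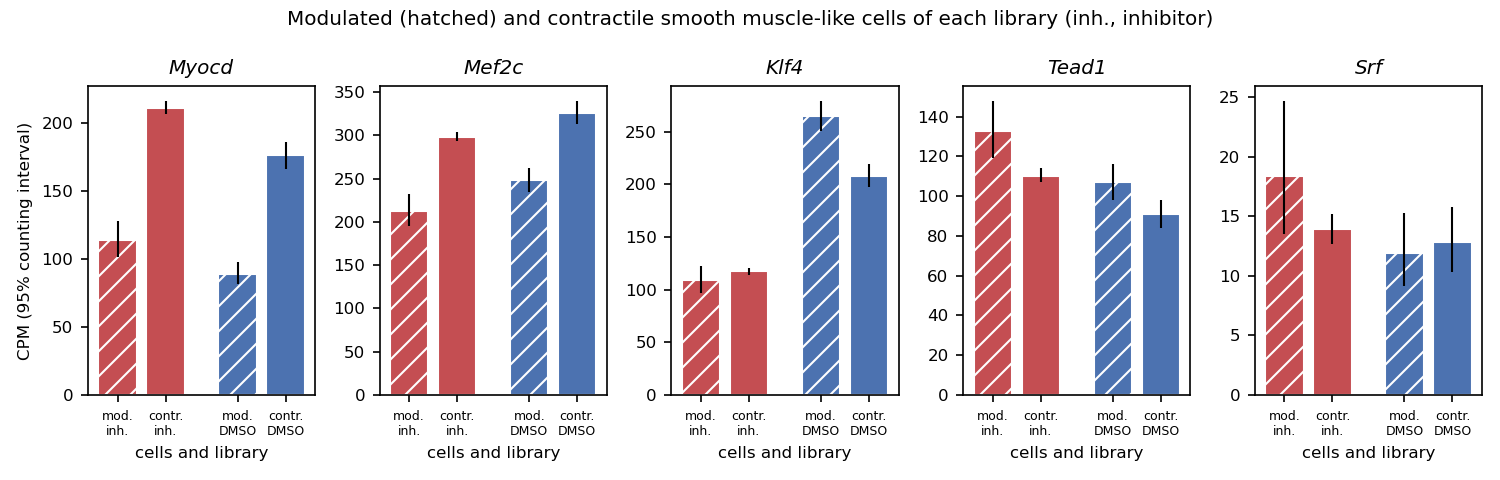
Level (CPM from 0, 1 scale per gene) of 5 factors in modulated (hatched) and contractile cells of the inhibitor library (red) and the DMSO library (blue), with 95% counting intervals. Myocd is lower in modulated than in contractile cells of both libraries, while Klf4 differs more between libraries than between the 2 kinds of cell.

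When smooth muscle-like cells were instead ranked by their share of modulated marker UMIs and split into 4 equal groups, Myocd in the lowest to the highest group was 231, 217, 205 and 170.1 CPM in the inhibitor library and 167, 171, 165 and 74.0 CPM in the DMSO library. In the DMSO library the low level lay in the top group, whereas the inhibitor library declined over all 4. Klf4 over the same groups was 89.6, 108, 124 and 142 CPM with the inhibitor, and with DMSO it was 227 CPM in the lowest and 263 CPM in the highest. The Myocd call rests on where the modulated cluster is drawn: with doublets kept, 780 inhibitor and 460 DMSO cells were called modulated and the log2 ratio of Myocd was -0.18 with the inhibitor and -0.80 with DMSO. Fibroblast markers moved with the modulated state too, summing to 2908 CPM in modulated and 976 CPM in contractile inhibitor cells, and 4708 CPM in modulated and 926 CPM in contractile DMSO cells. Without modulated cells that held a fibroblast marker UMI, the Myocd log2 ratio was -0.61 with the inhibitor (68 cells left) and -0.67 with DMSO (80 cells left), still past the limit, and that of Klf4 was -0.72 and -0.08.

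The contractile targets of SRF and myocardin were lower alongside Myocd; many of them are also smooth muscle markers, but none served to split modulated from contractile clusters. Of the contractile targets, 15 of 18 measured were called lower in modulated than in contractile cells of the inhibitor library (median log2 ratio -0.87, against 0.04 over all genes measured) and 16 of 19 in the DMSO library (median -1.09, against -0.00); none was higher. Of all genes measured, 25.8% were called with the inhibitor (10.5% lower and 15.4% higher) and 22.2% with DMSO (10.0% lower and 12.1% higher). Myh11, the smooth muscle myosin heavy chain, had 1864 CPM in modulated and 4817 CPM in contractile inhibitor cells, and 1438 CPM in modulated and 4313 CPM in contractile DMSO cells. Synpo2, an actin-binding protein, stood at 0.347 of its contractile level with the inhibitor and 0.324 with DMSO. Csrp1, a LIM protein that works with SRF, was lower in modulated cells at a ratio of 0.604 with the inhibitor and 0.490 with DMSO, and Elk3, an ETS factor that binds SRF on DNA, was higher at 2.78 with the inhibitor and 1.92 with DMSO.

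In the KLF and SP family, 1 of 10 measured members was higher and 1 lower in modulated cells with the inhibitor, and 0 higher and 1 lower with DMSO, beside the 25.8% and 22.2% of all genes called in the same libraries. Klf15 was lower at 0.354 with the inhibitor and 0.438 with DMSO, and Klf2, a KLF of endothelium, was 1.73 in the inhibitor library. Of 8 measured bHLH partners and inhibitors, 4 were higher and 3 lower in modulated cells with the inhibitor, and 3 higher and 3 lower with DMSO (median log2 ratios 0.26 and 0.17). Twist1, a mesenchymal bHLH factor, was higher, at 24.6 CPM in modulated and 12.3 CPM in contractile inhibitor cells and 44.0 CPM in modulated and 15.5 CPM in contractile DMSO cells, and Tcf4 was higher at 2.06 with the inhibitor and 1.88 with DMSO. Among the inhibitors of differentiation, Id2 was lower at 0.444 with the inhibitor and 0.449 with DMSO, whereas Id3 was higher at 1.71 with the inhibitor and 1.73 with DMSO. Of the TEAD, YAP and Hippo genes, 0 of 12 measured were called in the inhibitor library and 1 of 13, Stk4, in the DMSO library. The modulation genes, 12 of which also served to name the modulated cluster, were higher in 13 of 13 measured with the inhibitor and 13 of 14 with DMSO, which is a description and no support.

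Between the libraries, Klf4 was the 1 factor called in smooth muscle-like cells, and it was lower with the inhibitor. It had 117 CPM with the inhibitor (114 to 121) and 233 CPM with DMSO (224 to 241), a ratio of 0.503 (0.480 to 0.528). Of 4 measured factors it was the only call, where 8.13% of 6239 genes were called lower and 3.51% higher. The share of cells with a Klf4 UMI was 52.7% with the inhibitor and 76.5% with DMSO, and 17.9% (16.6 to 19.3%) and 35.4% (32.0 to 38.9%) after each cell was thinned to 2000 UMIs, which left out 112 inhibitor and 34 DMSO cells. The 4 smooth muscle-like clusters had ratios of 0.603, 0.436, 0.620 and 0.413, so that each had less Klf4 with the inhibitor. Within contractile cells Klf4 had 118 CPM with the inhibitor and 208 CPM with DMSO (ratio 0.565; 7.32% of genes called, 4.57% lower and 2.75% higher), and within modulated cells 109 CPM with the inhibitor and 265 CPM with DMSO (ratio 0.413; 8.60% of genes called, 5.48% lower and 3.12% higher).

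Myocd lay just short of the limit in smooth muscle-like cells as a whole, at 205 CPM with the inhibitor and 139 CPM with DMSO (ratio 1.48, 1.40 to 1.56). The cell makeup moved with this value: within contractile cells the ratio was 1.20 (1.13 to 1.28), within modulated cells 1.28 (1.10 to 1.48), and with both libraries given the same share of each cluster the log2 ratio was 0.27, against 0.56 without that step. Mef2c had 293 CPM in each library (ratio 1.00, 0.963 to 1.04). Tead1 had 112 CPM with the inhibitor and 97.7 CPM with DMSO (ratio 1.14, 1.07 to 1.22). Srf differed by less than its counting error, with a ratio of 1.14 (0.952 to 1.38). Its ratio was 1.08 (0.864 to 1.38) within contractile cells and 1.55 (1.03 to 2.31) within modulated cells, in both under the 20 CPM limit.

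The smooth muscle-like libraries also differed in composition, which touches every ratio above. Heat shock genes summed to 25936 CPM with the inhibitor and 4900 CPM with DMSO, and factors that scale by the bulk of genes (TMM and median of ratios) shift all log2 ratios in smooth muscle-like cells up by 0.19. With TMM factors Klf4 was at -0.80, still called lower, Myocd was at 0.75 and called higher, and Mef2c in contractile cells was at 0.05, on the other side of 0 from the -0.13 without such a factor. A leukocyte marker UMI was found in 41.1% of inhibitor and 86.6% of DMSO smooth muscle-like cells. Without such cells the Klf4 log2 ratio was -1.12, from 1868 inhibitor and 105 DMSO cells. That of Srf was 1.29 in the same cells, against 0.19 in all smooth muscle-like cells. All 786 DMSO smooth muscle-like cells held only 151 Srf UMIs, so the 105 left hold few and this value is uncertain.

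The contractile targets of SRF and myocardin were close to level between the libraries once the modulated cells were set aside. Over all smooth muscle-like cells, 2 of 19 measured targets were called higher with the inhibitor and 1 lower (median log2 ratio 0.38, against -0.04 over all genes). Cnn1, calponin, had 2245 CPM with the inhibitor and 1364 CPM with DMSO, and Myh11 4628 CPM with the inhibitor and 3081 CPM with DMSO. Within contractile cells 0 were called higher and 1 lower (median 0.09, against -0.05 over all genes). The one was Pln, phospholamban, at 14.7 CPM with the inhibitor and 35.4 CPM with DMSO. Pln was the first leading gene of 1 contractile cluster, which held 592 of 3054 contractile cells with the inhibitor and 144 of 522 with DMSO. The part of this makeup in the Pln difference was not tested. Myh11 stood at 4817 CPM with the inhibitor and 4313 CPM with DMSO in contractile cells. The contractile cells of the libraries still differed in their modulation genes, 12 of which also served to name the modulated cluster. Of 13 measured there, 11 were called lower with the inhibitor and 0 higher (median log2 ratio -0.76). Over all genes 4.57% were called lower and 2.75% higher. Modulation genes summed to 17108 CPM with the inhibitor and 26540 CPM with DMSO. The myocardin-related factors Mrtfa and Mrtfb, named after their values were seen, had smooth muscle-like ratios of 0.817 and 0.966, neither called.

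The immediate early genes are another set of SRF targets and also respond to tissue digestion. In smooth muscle-like cells 7 of 14 measured were called lower with the inhibitor and 1 higher (median log2 ratio -0.56), beside 8.13% lower and 3.51% higher over all genes (median -0.04). Egr3 stood at 9.97 CPM with the inhibitor and 31.1 CPM with DMSO, Fosb at 88.9 CPM with the inhibitor and 237 CPM with DMSO, and Junb at 109 CPM with the inhibitor and 237 CPM with DMSO. The exception was Atf3, a stress-responsive factor, at 204 CPM with the inhibitor and 104 CPM with DMSO. In the KLF and SP family Klf2 was the 1 of 10 called, where 11.6% of all genes were called either way, at 83.9 CPM with the inhibitor and 197 CPM with DMSO. Among the bHLH partners and inhibitors Id1 was higher at 281 CPM with the inhibitor and 120.3 CPM with DMSO, and Twist1 was lower at 13.1 CPM with the inhibitor and 27.7 CPM with DMSO. Within contractile cells Twist1 was under 20 CPM and not called, at 12.3 CPM with the inhibitor and 15.5 CPM with DMSO (0.789, 0.638 to 0.984). No TEAD, YAP or Hippo gene of 13 measured was called, nor any MEF2 family member or class II deacetylase of 7. Of the YAP and TEAD targets 1 of 14 was higher, Tgfb2 at 536 CPM with the inhibitor and 301 CPM with DMSO, and 1 lower, Ccn1 at 339.8 CPM with the inhibitor and 566 CPM with DMSO. Of 10 measured other vascular fate regulators, 2 were called lower with the inhibitor and 0 higher. Among this list Sox9, a cartilage lineage factor, stood at 6.77 CPM with the inhibitor and 26.7 CPM with DMSO. Modulated cells, pooled in these values, were 3.78% of inhibitor and 33.6% of DMSO smooth muscle-like cells. The part of this makeup in the Sox9 difference was not tested.

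Klf4 was lower with the inhibitor outside smooth muscle as well. Its ratio of inhibitor to DMSO was below 1 in all 11 classes compared, smooth muscle-like cells among them. The interval lay below 1 in 10 of the 11, and neutrophil-like cells, with 8 and 46 UMIs, were the exception. Among clusters, the smooth muscle-like ones included, it was below 1 in 24 of 26 where it could be measured. It was called lower in 16 clusters, with none called higher. No matching share over all genes was taken for these counts of classes and clusters. All of them come from the same libraries, 1 per group. Adipocyte-like cells had 102 CPM with the inhibitor and 346 CPM with DMSO (ratio 0.297), from 83 inhibitor and 848 DMSO cells. Smooth muscle RNA moved with that value: Myocd had 22.4 CPM with the inhibitor and 3.99 CPM with DMSO in these cells, and the contractile targets of SRF and myocardin summed to 4484 CPM with the inhibitor and 2121 CPM with DMSO. Their part in the result was not tested. T cell-like cells had 266 CPM with the inhibitor and 531 CPM with DMSO (0.502), and Schwann-like cells 365 CPM with the inhibitor and 636 CPM with DMSO (0.574; 5.46% of genes lower and 5.49% higher). Dendritic-like cells had 432 CPM with the inhibitor and 718 CPM with DMSO (0.601; 9.77% lower and 3.21% higher). Fibroblast-like, macrophage-like and endothelial-like cells had ratios of 0.789, 0.743 and 0.882, short of the limit. The endothelial-like cluster led by Cytl1 and Gja5 had a ratio above 1, at 626 CPM with the inhibitor and 518 CPM with DMSO (1.21).

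**Figure D3:**
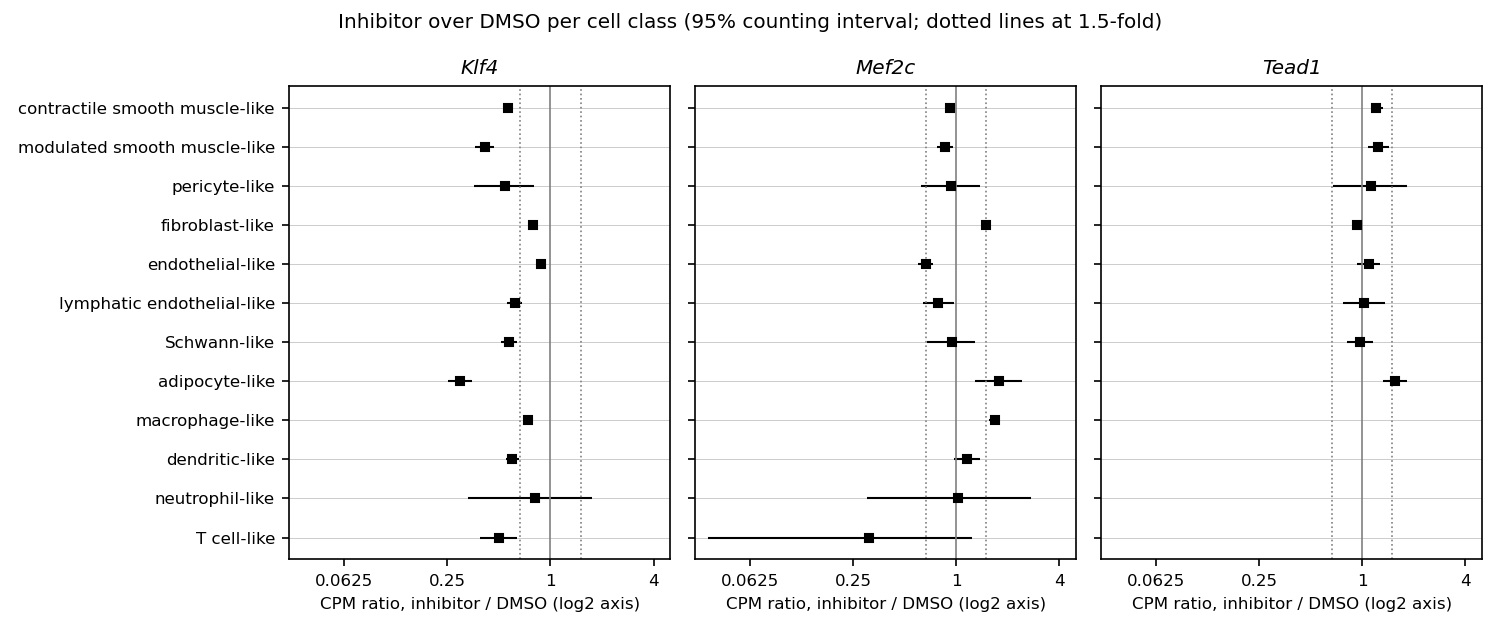
CPM ratio of the inhibitor library over the DMSO library (log2 axis, squares with 95% counting intervals, dotted lines at 1.5-fold) for Klf4, Mef2c and Tead1 in each class where the gene could be measured. Klf4 lies left of 1 in every class, and Mef2c lies on both sides. Mef2c is at 1.77 for adipocyte-like, 1.68 for macrophage-like and 0.663 for endothelial-like cells. Tead1 stays near 1 outside adipocyte-like cells.

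The summed level of the immediate early genes with the inhibitor was also below that with DMSO in 11 of 11 classes, smooth muscle-like cells among them. It was 2521 CPM in inhibitor and 3870 CPM in DMSO contractile cells, 1725 CPM in inhibitor and 3013 CPM in DMSO modulated cells, 3064 CPM in inhibitor and 4580 CPM in DMSO fibroblast-like cells, and 5811 CPM in inhibitor and 8989 CPM in DMSO macrophage-like cells. Klf4 followed this share from cell to cell within each library. In contractile cells split into 4 equal groups by their own library's immediate early share, Klf4 in the lowest to the highest group was 63.5, 90.8, 114 and 212 CPM with the inhibitor and 96.1, 196, 254 and 319 CPM with DMSO. Myocd over the same groups was 194, 235, 206 and 209 CPM with the inhibitor and 171, 199.9, 159 and 172 CPM with DMSO, with no such trend.

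When cells of both libraries were set into the same ranges of immediate early share, the difference in Klf4 became smaller in contractile, fibroblast-like and macrophage-like cells. Only cells with at least 2000 UMIs were set into ranges, whereas the ratios for all cells include the rest. In contractile cells the ratio was 0.883 (0.731 to 1.07), 0.642 (0.559 to 0.741), 0.672 (0.594 to 0.762) and 0.873 (0.792 to 0.963) in the 4 ranges. It was 0.565 for all contractile cells, and 0.642 was still past the 1.5-fold limit. Klf4 in the lowest range was 71.0 CPM with the inhibitor and 80.5 CPM with DMSO. In the highest range it was 261 CPM with the inhibitor and 299 CPM with DMSO. In fibroblast-like cells the ratios were 1.08, 1.12, 1.02 and 0.849, and in macrophage-like cells 1.31, 0.919, 1.00 and 0.943, on both sides of 1 in both classes, against 0.789 and 0.743 for all their cells. In modulated cells, where the upper ranges held 15 and 14 inhibitor cells, the ratios were 0.639, 1.23, 0.402 and 0.481, against 0.413 for all modulated cells. Myocd in contractile cells kept ratios of 1.18, 1.18, 1.11 and 1.29 over the ranges. These ranges were chosen after the values had been seen, and whether the immediate early level accounts for the Klf4 difference was not tested.

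**Figure D4:**
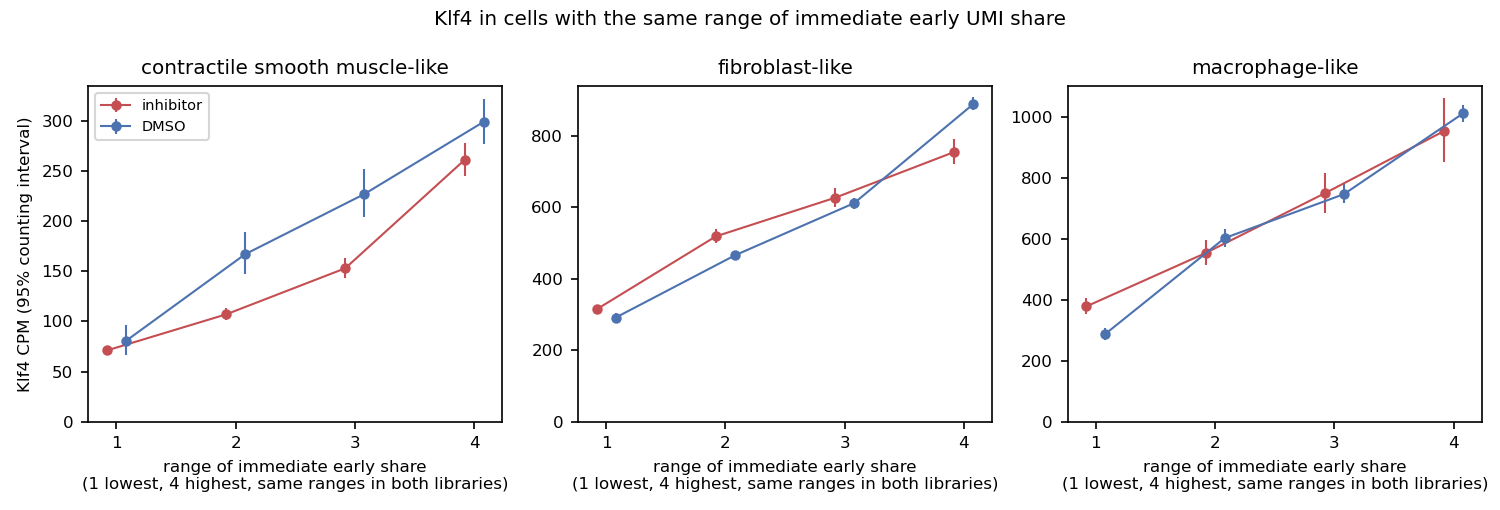
Klf4 level (CPM, y axis from 0, with 95% counting intervals) in the inhibitor library (red) and the DMSO library (blue) for cells in the same 4 ranges of immediate early UMI share, in contractile smooth muscle-like, fibroblast-like and macrophage-like cells. Klf4 climbs with the share in both libraries; in contractile cells the inhibitor points lie below the DMSO points, and in the other classes the lines cross.

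In fibroblast-like cells Tcf21 was the 1 factor called, and it was higher with the inhibitor: 22.3 CPM with the inhibitor (20.4 to 24.4) and 9.06 CPM with DMSO (8.12 to 10.1), a ratio of 2.46 (2.14 to 2.84; 4.94% of genes higher and 7.66% lower). The largest share of its UMIs lay in the cluster led by Angptl7 and Fmod, which held 72.3% of them with the inhibitor and 36.0% with DMSO and which made up 67.3% of inhibitor and 24.8% of DMSO fibroblast-like cells. Within that cluster Tcf21 had 352 UMIs or 31.5 CPM with the inhibitor and 123 UMIs with DMSO, and the ratio, with an interval of 1.22 to 1.85, fell just short of the limit. The cluster led by Crabp2, Pla1a and Il33 had 3.45 CPM with the inhibitor and 4.81 CPM with DMSO (0.716, 0.368 to 1.28). The cluster led by Penk and Cxcl13 had 18.5 CPM with the inhibitor and 11.7 CPM with DMSO (1.58, 1.18 to 2.12). The cluster led by Ube2c and Hmmr had 34 UMIs with the inhibitor and 7 with DMSO (5.91, 2.58 to 15.8). These 3 clusters were under the 20 CPM needed for a call. The cluster led by Apod held no Tcf21 UMI in 7 inhibitor cells and 11 in 66 DMSO cells. With equal cluster shares the log2 ratio of Tcf21 was 0.58 and no longer past the limit, against 1.30 without that step, and without fibroblast-like cells that held a leukocyte UMI it was 0.43, from 1264 inhibitor and 280 DMSO cells. Mef2c lay at the limit in the class, at 78.0 CPM with the inhibitor and 52.1 CPM with DMSO (1.49), and was level at equal cluster shares (log2 ratio -0.00).

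In macrophage-like cells Mef2c was higher with the inhibitor, at 234 CPM with the inhibitor (221 to 248) and 139 CPM with DMSO (133 to 146), a ratio of 1.68; 7.30% of genes were called, 3.24% higher and 4.06% lower. The cluster led by Cd163 and Folr2 had 404 CPM with the inhibitor and 233 CPM with DMSO (1.74, 1.53 to 1.97), and it made up 47.6% of inhibitor and 23.2% of DMSO macrophage-like cells. The cluster led by Cd5l, Mmp12 and Gpnmb had 60.0 CPM with the inhibitor and 62.9 CPM with DMSO. With equal cluster shares the log2 ratio of Mef2c was 0.48, against 0.75, and below the limit, while that of Klf4 was -0.60 and past it.

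In endothelial-like cells Mef2c was lower with the inhibitor, at 167 CPM with the inhibitor (153 to 182) and 253 CPM with DMSO (241 to 265), a ratio of 0.663; 9.07% of genes were called lower and 4.70% higher. None of the 3 endothelial clusters passed the limit on its own: the cluster led by Gpihbp1 had a ratio of 0.795, the one led by Vwf and Plvap 0.714, and the one led by Cytl1 0.914. The Cytl1 cluster, with the lowest Mef2c level (114 CPM with the inhibitor and 125 CPM with DMSO), was 44.3% of inhibitor and 17.8% of DMSO endothelial-like cells. At equal cluster shares the log2 ratio was -0.31, against -0.59, and no longer past the limit. The call was lost in 12 of 16 alternative settings, among them TMM factors and doublets kept.

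Myocd and Klf4 were not found in separate smooth muscle-like cells. After thinning to 2000 UMIs, a Klf4 UMI was found in 17.2% of inhibitor cells with a Myocd UMI (170 of 989 cells; 14.9 to 19.7%) and in 18.2% of those without (378 of 2073 cells). In the DMSO library the shares were 31.5% with Myocd (24.9 to 38.8%) and 36.6% without (32.6 to 40.7%), with overlapping intervals. Mef2c was found in 44.4% of inhibitor cells with Myocd and 41.1% without, and in 41.3% of DMSO cells with Myocd and 39.6% without.

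The genes most like each factor were taken from Pearson's r of log2(CPM + 5) over 14 sums, 7 classes in 2 libraries, which share their cells, depth and free RNA; smooth muscle markers had also defined the classes. Myocd was most like Myh11, Ldb3 and Lmod1 (r = 0.99 each), genes of the contractile apparatus. Tcf21 was most like Angptl7 (0.99), Gm13305 and Hhip (0.98 each). Tead1 was most like Syde1 (1.00), Mef2c like Rassf3 and Entpd1 (0.95 each), Klf4 like Gxylt1 (0.94) and Klf5 like Entpd2 (0.93). Srf, with its low and even level, reached 0.89 with Uhrf1bp1l.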

How the data were processed

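The authors deposited 1 matrix of unnormalized UMI counts per library, written by Cell Ranger 6.1.1 per the file headers. GRCm38 and Seurat appear in the submitters' processing notes. The lowest total of a deposited barcode is 500 UMIs. The 7 factors and all gene lists were chosen with earlier results of these data known.

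Barcodes under 200 genes or over 20% mitochondrial UMIs were dropped. Scrublet's own threshold for the DMSO library (0.659) called 0 cells there; after this was seen, the inhibitor library's 0.214 was used for both, removing 440 inhibitor cells (5.60%) and 253 DMSO cells (2.92%). Cells were scaled to 10000 UMIs and clustered together without integration (scanpy 1.11.5, 2000 variable genes without any listed gene or marker, 30 components, 15 neighbours, Leiden resolution 1), giving 34 clusters, 28 of them named. A name needed at least 3 counted markers, a mean score of 1.5, a median of 1000 UMIs and 50 cells, and leading genes of no other class; a smooth muscle-like cluster was modulated with at least 6 of 12 modulated markers. The limits of 50 cells and 6 markers were set after the clusters had been seen.

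UMIs were summed per class and library. Levels have exact Poisson intervals, ratios exact conditional binomial intervals, and shares exact Clopper-Pearson intervals, all at 95%. List medians use log2 ratios after adding 5 CPM. Named genes are the 7 factors, up to 3 list members per direction with the largest ratio past the limit in smooth muscle-like comparisons, and the 3 protein-coding genes most like each factor; cluster-leading genes and exceptions are marked as such. TMM factors came from edgeR 4.0.16. The rule for calls was run on simulated Poisson counts, the model its intervals assume. Such a run says nothing of variation between cells or animals. Promoters are from RefSeq, GRCm38.p6. A set of 20 alternative settings was run; 5 more were added after seeing the data, as were the matched ranges of immediate early share. Results that need items withheld for evaluation are not reported here.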

Additional observations from a re-analysis of the deposited data

Results flagged for a closer look

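Mef2c went in opposite directions in 2 classes under the same contrast: the ratio of inhibitor to DMSO was 1.68 in macrophage-like cells and 0.663 in endothelial-like cells. With 1 library per group the difference between the classes was not tested. The makeup of clusters moved with both values, and at equal cluster shares neither passed the limit, at log2 ratios of 0.48 in macrophage-like and -0.31 in endothelial-like cells. Adipocyte-like cells were outside the classes checked for this flag. Their Mef2c ratio was 1.77 (1.28 to 2.42), at 31.4 CPM with the inhibitor (49 UMIs) and 17.7 CPM with DMSO (257 UMIs). The part of smooth muscle RNA in this value was not tested.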

How the results depend on the processing

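No paired analysis was possible because each group holds 1 library, and no library could be left out for the same reason. The counts of called factors, 1 in each comparison, moved as follows. In smooth muscle-like cells the count was 2 with totals free of abundant genes, TMM, median of ratios, doublets kept, 10% mitochondrial UMIs, Leiden resolution 0.5 and cells named one by one, each adding Myocd as higher; it was 2 with no low filter (adding Klf5 as lower) and 0 at a fold limit of 2. In contractile cells it was 2 with no low filter and in 1 cluster alone (adding Tead1), and 0 at a fold limit of 2. In fibroblast-like cells it was 2 with TMM, median of ratios, doublets kept, 10% mitochondrial UMIs, 1000 genes per cell, Leiden resolution 2 or 5000 UMIs (adding Mef2c), with a mean over cells (adding Klf5 as lower) and with no low filter (adding Myocd). It was 0 without the largest inhibitor cluster and 0 at equal cluster shares. Without cells holding a leukocyte UMI the 1 fibroblast call was Klf5 as lower and not Tcf21. In endothelial-like cells Mef2c lost its call, giving 0, with TMM, median of ratios, a mean over cells, doublets kept, 10% mitochondrial UMIs, 1000 genes, both other resolutions, cells named one by one, no leukocyte UMI, a fold limit of 2 and equal cluster shares; it was 2 with no low filter. In macrophage-like cells the count was 2 with no low filter and 0 at a fold limit of 2. For modulated over contractile cells it was 0 with doublets kept, 10% mitochondrial UMIs, Leiden resolution 0.5, top against bottom groups by modulated marker share, a fold limit of 2 and the cluster with 5 modulated markers counted as modulated; modulated cells then numbered 780, 598 and 384 (inhibitor) and 460, 498 and 326 (DMSO) in the first 3. Naming cells one by one gives no modulated or contractile value. Of 994 values of single genes under alternatives, 671 stayed within the counting interval, 323 moved and 0 reversed a called direction. In smooth muscle-like cells counts limit Klf5 (33 inhibitor and 22 DMSO UMIs) and Tcf21 (19 and 9), whereas Srf (541 and 151) was under the 20 CPM limit.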
